A study of Mus musculus with 72 samples.

Results

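Gene expression at postnatal day 3 (P3) was compared with postnatal day 1 (P1) in olfactory epithelium, where odours are sensed in the nose, of control mice given doxycycline (DOX) from birth. The comparison holds 6 of the 72 libraries of the study, 3 labelled P3 with DOX from P0 to P3 and 3 labelled P1 with DOX from P0 to P1. They were chosen by genotype, age and treatment in the labels. All 6 carry Omp-IRES-tTA, in which the tetracycline-controlled activator tTA is made from the Omp locus, so in mature olfactory sensory neurons, and DOX keeps tTA off its target. The control animals carry no tetO target in the labels, and both groups received DOX from P0. The P3 animals received it for longer, so age and length of DOX cannot be told apart. Set beside this comparison are ectopicFzd1 mice, which carry Omp-IRES-tTA and tetO-Fzd1-IRES-tdTomato, given DOX from P0 and taken at P3 (3 libraries) and at P1 (3 libraries). Omp-IRES-tTA mice without DOX at P3 (2 libraries) and at P0 (3 libraries) were also used.

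Olfactory sensory neurons are made throughout life from basal stem cells, and each mature neuron expresses a single odorant receptor and the machinery that turns odorant binding into a current. That machinery runs from the receptor through the G protein of the Gnal gene and adenylyl cyclase 3 to a channel gated by cyclic AMP, built from Cnga2, Cnga4 and Cngb1, and a chloride channel encoded by Ano2. Sustentacular cells surround the neurons and carry enzymes that break down inhaled chemicals, while glands under the epithelium secrete mucus and odorant-binding proteins. The epithelium lies on cartilage and bone of the nasal skeleton, which grows fast around birth.

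The 6 libraries held 3134283 to 4383674 gene counts at P3 and 3791007 to 5451967 at P1. Of all reads, 19.5 to 26.9% were counted in genes at P3 and 30.9 to 33.0% at P1. Genes of the Gm10800 type, which lie in satellite repeats, took 6.90 to 13.96% of gene counts at P3 and 3.41 to 6.16% at P1, and ribosomal protein genes took 1.36 to 1.83% at P3 and 2.37 to 2.41% at P1. Both measures of library make-up moved with age, and their part in the results was not tested beyond the refits given below. Y-linked genes reached 326 CPM (counts relative to library size, scaled for library composition) in P1 replicate 2 and at most 1.90 CPM in the other 5 libraries. The titles of the P3 and the P1 libraries carry IDs of different series, so age and ID series cannot be told apart. Each of the 6 libraries has an ID of its own in its title, and P1 replicate 2 stood apart from the other P1 libraries in Y-linked level, but no label says that an ID is an animal. The spread behind every p-value is that among libraries, part of which may be technical. For single genes it was estimated within groups over all 72 libraries, unless a fit of fewer is named. The 3 libraries of ectopicFzd1 at P3 share 1 ID in their titles, but their Y-linked levels were 207, 0.320 and 0.196 CPM and their Xist levels 3.93, 883 and 1059.9 CPM, so these libraries did not all come from 1 animal.

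Of 22144 genes tested, 4851 (21.9%) had an adjusted p below 0.05 in control mice with DOX, where each adjusted p is a Benjamini-Hochberg value of edgeR's quasi-likelihood test. The higher calls were 40.8% of all calls, and 51.4% when the genes of the Gm10800 type were left out. Of the 4851, 1977 (8.93% of those tested) were higher at P3 and 2874 (13%) were lower, and 1323 changed by more than 1 on the log2 scale. The median log2 fold change of all genes was 0.07. The 2 ages also separated without a test: all 3 P3 libraries lay above all 3 P1 libraries for 20.6% of genes and below them for 21.6%. In ectopicFzd1 mice with DOX, which share no library with these, 3875 genes (17.5%) were called between the same ages, 1378 (6.22%) higher and 2497 (11.3%) lower at P3. Called in the same direction in both lines were 1436 genes, 409 higher and 1027 lower at P3, which is 29.6% of the calls in control and 37.1% of those in ectopicFzd1. Another 106 genes were called in opposite directions. In control mice without DOX, P3 against P0 called 2800 genes (12.6%), 1278 (5.77%) higher and 1522 (6.87%) lower at P3. With them the DOX comparison shared 467 calls of the same direction, 9.63% of its own and 16.7% of theirs, and 355 calls were opposite. The count of 2800 was 319 without control P3 replicate 1 of the groups without DOX, and 1612 and 1678 without their P0 replicates 3 and 2. The shared calls were not counted without these libraries. For ectopicFzd1 the count of 3875 was 2355 without P3 replicate 3. Counts of called list members below are to be read against the shares of all genes. These were 8.93% higher and 13% lower in control with DOX, 6.22% and 11.3% in ectopicFzd1, and 5.77% and 6.87% without DOX. For the difference between the lines, tested below, 4.72% of genes had the higher value in control and 4.15% the lower. List counts were refitted without a library only for control with DOX.

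**Figure D1:**
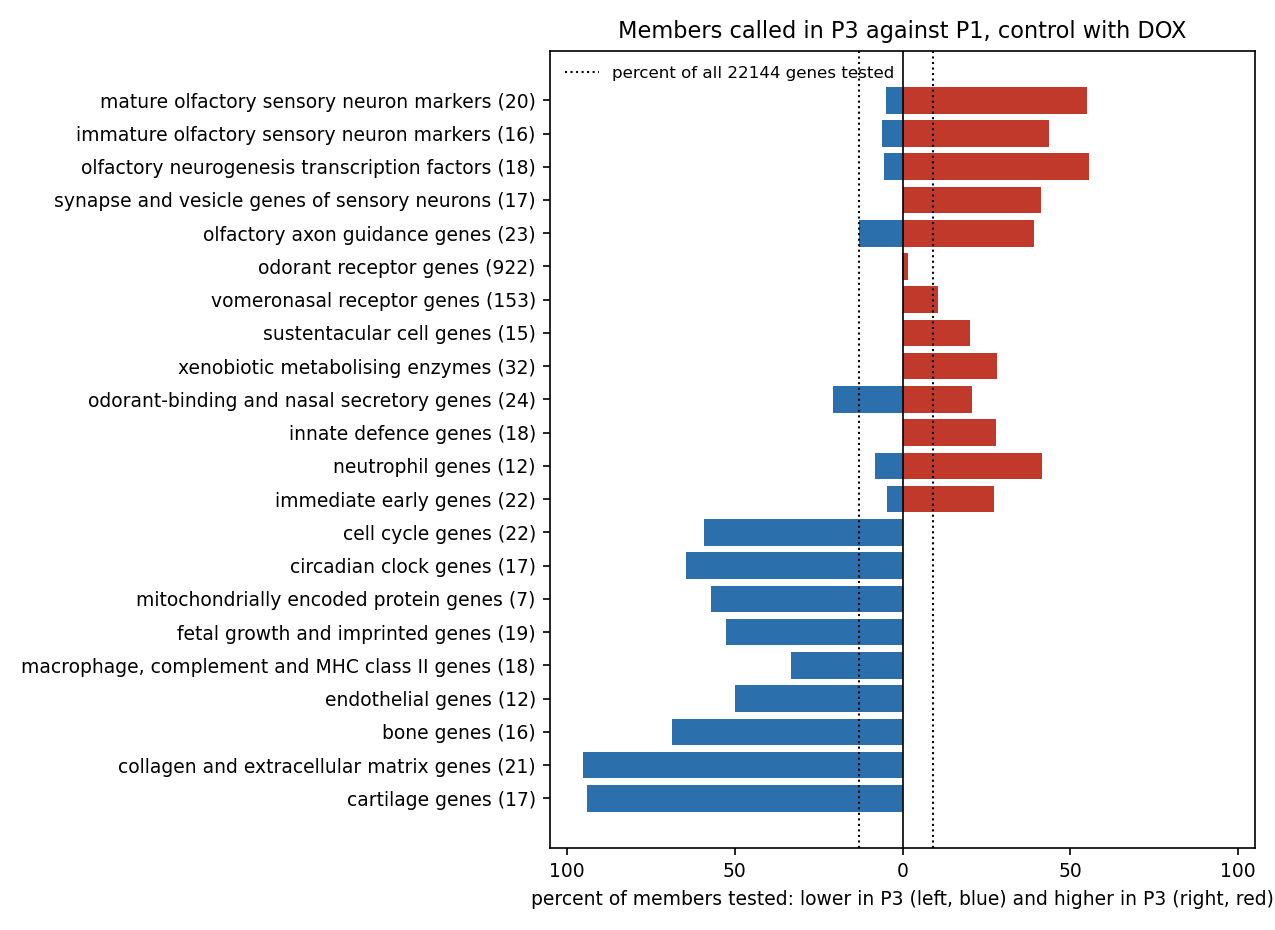
Percent of the tested members of each gene list that were called in P3 against P1 of control mice with DOX, to the right where P3 was higher and to the left where P3 was lower, with the number of members tested in brackets. Dotted lines mark the percent called over all 22144 genes, 8.93% higher and 13% lower. The longest bars to the left are the matrix list (20 of 21) and the cartilage list (16 of 17), and those of the neurogenesis factors (10 of 18) and mature neuron markers (11 of 20) are long to the right.

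Genes of cartilage were lower at P3 almost throughout. Of 17 cartilage genes tested, 16 were lower at P3 and none was higher, with a median log2 fold change of -3.33. The exception was Sox5, named after its values were seen, a transcription factor of chondrocytes at 17.7, 8.03 and 15.1 CPM in the P3 libraries, against 19.96, 25.4 and 25.5 CPM in the P1 libraries (log2 fold change -0.81, SE 0.31, adjusted p = 0.0558). The summed level of the 17 genes was 241 to 293 CPM in the P3 libraries, against 2255 to 2531 CPM in the P1 libraries. In bulk tissue, fewer cells of a type and less RNA per cell cannot be told apart.

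Among structural proteins, Col2a1, the main cartilage collagen and named after its values were seen, stood at 26.7, 26.6 and 39.7 CPM in the P3 libraries, against 376, 452 and 501 CPM in the P1 libraries (log2 fold change -3.83, SE 0.28, adjusted p = 3.25e-16). All P3 libraries were far below all P1 libraries, with P3 replicate 3 the highest of its group. Acan, the large proteoglycan that binds water in cartilage, had 8.71, 11.2 and 19.9 CPM in the P3 libraries, against 273, 270.2 and 283 CPM in the P1 libraries (log2 fold change -4.35, SE 0.28, adjusted p = 2.7e-18). The 3 P1 libraries lay close together and the groups did not overlap. Hapln1 encodes the link protein that joins that proteoglycan to hyaluronan. It was at 2.72, 3.59 and 4.17 CPM in the P3 libraries, against 140.1, 159 and 176 CPM in the P1 libraries (log2 fold change -5.47, SE 0.36, adjusted p = 2.7e-18), again without overlap. Of the type IX collagen chains, Col9a1 had 19.6, 22.8 and 17.5 CPM in the P3 libraries, against 207, 241 and 241 CPM in the P1 libraries (log2 fold change -3.52, SE 0.22, adjusted p = 3.79e-19), and Col9a3 changed by -3.22 (SE 0.22, adjusted p = 1.55e-17).

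Smaller cartilage products moved the same way. Matn1 and Matn3 encode matrilins, adaptor proteins of the cartilage matrix. Matn1 was at 2.72, 1.06 and 1.59 CPM in the P3 libraries, against 37.7, 37.6 and 33.1 CPM in the P1 libraries (log2 fold change -4.36, SE 0.51, adjusted p = 2.44e-09), and Matn3 at 0.272, 0.634 and 0.994 CPM in the P3 libraries, against 23.1, 20.1 and 19.5 CPM in the P1 libraries (log2 fold change -4.93, SE 0.59, adjusted p = 5.74e-09). No P3 library reached 1 CPM of Matn3. Cnmd, which encodes chondromodulin, an inhibitor of vessel growth in cartilage, changed by -4.03 (SE 0.29, adjusted p = 1.48e-16). Snorc, a chondrocyte membrane proteoglycan, changed by -4.25 (SE 0.73, adjusted p = 1.39e-05). Outside the list, Cytl1, a secreted protein of cartilage, changed by -4.48 (SE 0.55, adjusted p = 9.2e-09), and C1qtnf3, a secreted protein of growth plate cartilage, by -4.45 (SE 0.53, adjusted p = 5.21e-09). Clec3a, a lectin of cartilage also outside the list, had no count in any P3 library and 7.64, 7.94 and 6.197 CPM at P1. That makes it at least 32.8-fold lower at P3, taking 3 counts over the group as the floor.

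In ectopicFzd1 mice with DOX all 17 cartilage genes were lower at P3 (median -3.39), and no member differed between the lines. Col2a1 changed by -4.77 (adjusted p = 1.11e-19) there, Acan by -4.79 (adjusted p = 8.47e-20) and Hapln1 by -5.25 (adjusted p = 7.32e-18). P3 against P0 without DOX called 2 of the 17 lower (median -0.44). Across the ages of control mice, the level was highest at P1. Hapln1 averaged 10.6 ± 5.97 CPM at P0 without DOX, 158 ± 17.9 CPM at P1 and 3.49 ± 0.731 CPM at P3 with DOX (SD, n = 3 each). At P7, P10 and P14 with DOX it averaged 2.99, 3.36 and 2.94 CPM. Outside the DOX groups at P3 and P1 of both lines, the mean of the 21 other groups lay between 2.89 and 18.4 CPM for Hapln1 and between 14.6 and 49.4 CPM for Acan. The 6 P1 libraries of both lines thus stood apart from every other group in both genes. The labels do not give how much nasal cartilage and bone was taken with the epithelium, and the part of skeletal tissue in the cartilage, bone and matrix values was not tested.

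**Figure D2:**
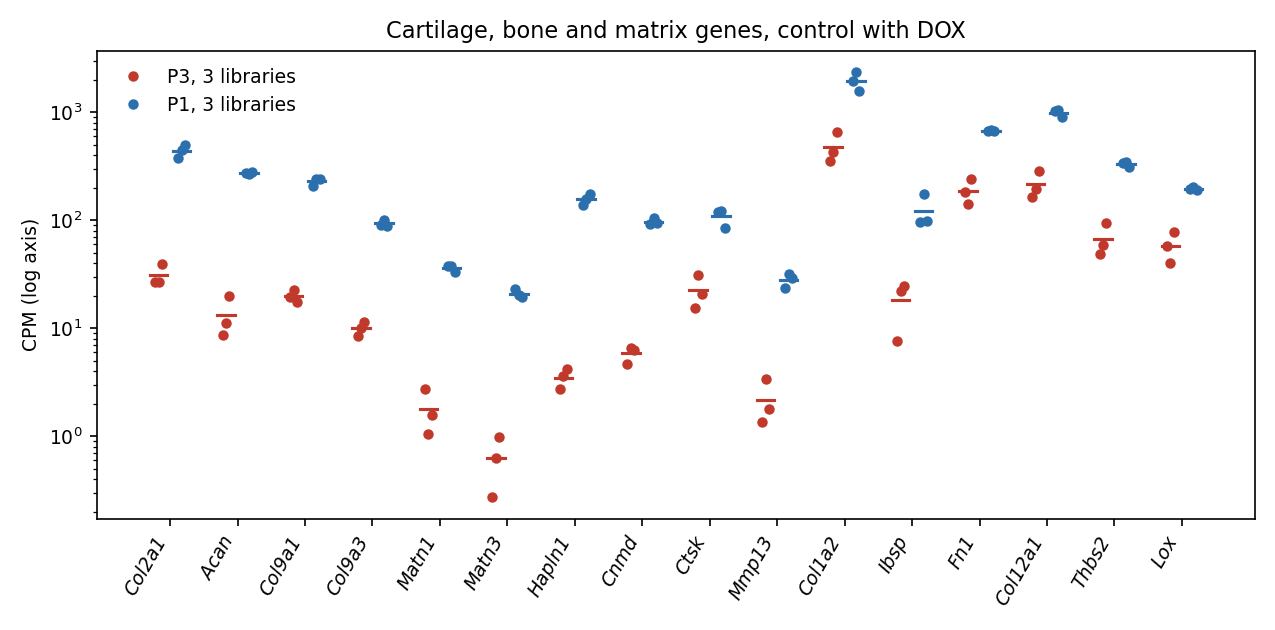
Level in CPM (log axis) of 16 cartilage, bone and matrix genes in each of the 3 P3 and 3 P1 libraries of control mice with DOX; points are libraries and short lines are group means. Each gene's P3 libraries lie below all of its P1 libraries.

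Most bone genes were lower too. Of 16 tested, 11 were lower at P3 and none was higher (median -1.47), and the summed level was 879 to 1526 CPM in the P3 libraries, against 3245 to 4713 CPM in the P1 libraries. Mmp13, a collagenase of growing cartilage and bone, had 1.36, 3.38 and 1.79 CPM in the P3 libraries, against 23.4, 31.9 and 29.6 CPM in the P1 libraries (log2 fold change -3.65, SE 0.50, adjusted p = 1.58e-07). Ctsk, the protease with which osteoclasts break down bone, had 15.5, 31.5 and 20.7 CPM in the P3 libraries, against 119, 123 and 84.9 CPM in the P1 libraries (log2 fold change -2.26, SE 0.30, adjusted p = 7.07e-08). Neither gene's groups overlapped. Ibsp, which encodes bone sialoprotein, was at 7.62, 22.0 and 24.8 CPM in the P3 libraries, against 95.6, 175 and 98.9 CPM in the P1 libraries (log2 fold change -2.73, SE 0.46, adjusted p = 9.04e-06), with P1 replicate 2 the highest library and P3 replicate 1 the lowest. Col1a2, a chain of the main bone and skin collagen, changed by -2.04 (SE 0.29, adjusted p = 2.36e-07). In ectopicFzd1 mice 7 of the 16 were lower at P3. Ibsp changed there by -0.42 (adjusted p = 0.55), and this gene differed between the lines (difference -2.30, adjusted p = 0.0145).

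Collagens and other proteins of connective tissue followed. Of 21 tested, 20 were lower at P3 (median -1.71), and the exception, Mfap5, a microfibril protein named after its values were seen, changed by -1.05 (SE 0.46, adjusted p = 0.0967). Fn1, which encodes fibronectin, had 182, 142 and 241 CPM in the P3 libraries, against 675, 689 and 669 CPM in the P1 libraries (log2 fold change -1.85, SE 0.19, adjusted p = 1.13e-10). Col12a1, a collagen that decorates fibrils, had 166, 196 and 288 CPM in the P3 libraries, against 1039, 1054 and 902 CPM in the P1 libraries (log2 fold change -2.20, SE 0.23, adjusted p = 1.31e-10). Neither gene overlapped between ages. Thbs2, a thrombospondin, changed by -2.30 (SE 0.25, adjusted p = 4.29e-10), and Lox, the enzyme that cross-links collagen and elastin, by -1.75 (SE 0.21, adjusted p = 3.14e-09). In ectopicFzd1 mice 19 of the 21 were lower and 1 was higher at P3. Without DOX, P3 against P0 called 1 lower and 1 higher.

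Imprinted and fetal growth genes, many of which act on growth before birth, some to restrain it, were lower in part. Of 19 tested, 10 were lower at P3 and none was higher (median -1.19), and the other 9 did not pass the test, with log2 fold changes of up to 0.67. Without P3 replicate 3, 1 was higher. H19, a maternally expressed noncoding RNA, had 225, 276 and 446 CPM in the P3 libraries, against 2349, 2192 and 2087 CPM in the P1 libraries (log2 fold change -2.80, SE 0.28, adjusted p = 2.17e-11). Plagl1, a transcription factor that drives a network of imprinted genes, had 43.5, 41.0 and 57.4 CPM in the P3 libraries, against 143, 145 and 164 CPM in the P1 libraries (log2 fold change -1.67, SE 0.14, adjusted p = 2.97e-14), and Peg3, a paternally expressed zinc finger gene, had 261, 247 and 308 CPM in the P3 libraries, against 616, 649 and 675 CPM in the P1 libraries (log2 fold change -1.25, SE 0.13, adjusted p = 1.13e-10). All 3 were separated without overlap. Cdkn1c, an inhibitor of cell division, changed by -1.67 (SE 0.23, adjusted p = 9.96e-08). In ectopicFzd1 mice 14 of the 19 were lower and 1 was higher at P3, with H19 at -2.52 (adjusted p = 5.68e-10) and Plagl1 at -1.60 (adjusted p = 9.24e-14). P3 against P0 without DOX called none of the 19, with H19 at -0.52 (adjusted p = 0.249) and Plagl1 at -0.14 (adjusted p = 0.58). In control with DOX, H19 averaged 2209 CPM at P1, 316 CPM at P3, 331 CPM at P7, 111 CPM at P10 and 69.6 CPM at P14, and the later ages were not tested. The summed cartilage and bone levels were also lower at P3, and their part in this result was not tested.

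**Figure D3:**
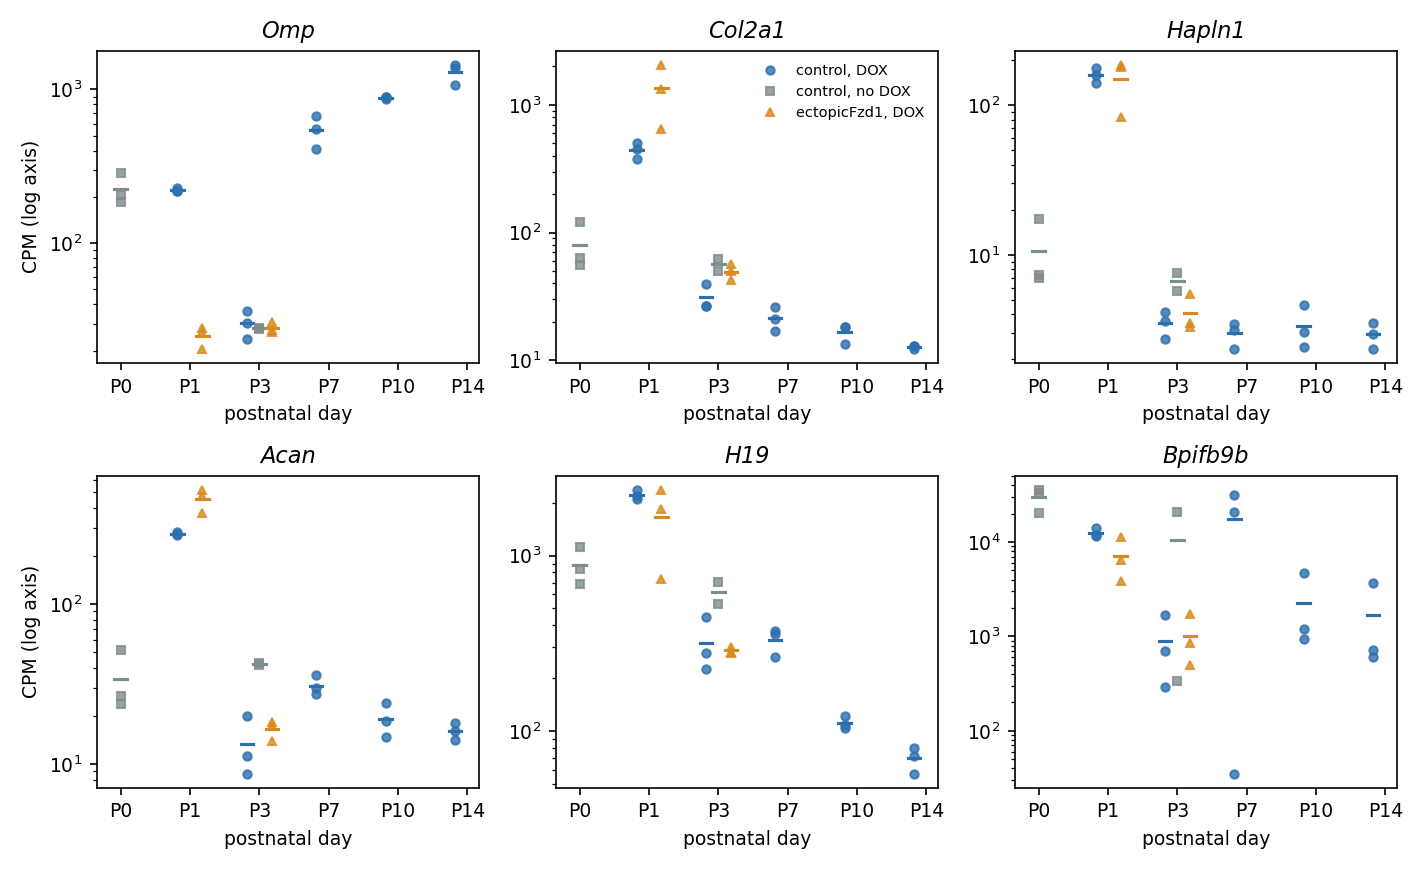
Level in CPM (log axis) of 6 genes by postnatal day; circles are control libraries with DOX, squares are control libraries without DOX, triangles are ectopicFzd1 libraries with DOX, and short lines are group means. The means of cartilage genes and H19 are highest at P1 in both DOX lines, Omp is low at P3 in every group shown, and Bpifb9b spreads widely within groups.

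Among markers of mature olfactory sensory neurons, more were higher than lower at P3. Of 20 markers of mature neurons, 11 were higher and 1 was lower (median 0.63), and their summed level was 3011 to 3878 CPM in the P3 libraries, against 2329 to 2466 CPM in the P1 libraries. The count of higher markers was 6 without P1 replicate 2 and 4 without P3 replicate 2. In ectopicFzd1 mice 14 of the 20 were higher at P3 (median 0.92), and without DOX 8 were higher at P3 than at P0. The summed cartilage and bone levels given above were lower at P3. Their part in the rises of this list and of the neuronal and supporting cell lists below was not tested.

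Promoters are shown for the 3 markers of mature neurons named by size of p after Omp, as sequence beside the rise of their genes, from RefSeq, build GRCm38.p6. Each runs from 250 bases before the start of the gene to 50 bases after it. Capitals mark CCCNNGGG, the core of the site bound by early B-cell factors, which are transcription factors of olfactory neurons, searched on both strands.
Cngb1: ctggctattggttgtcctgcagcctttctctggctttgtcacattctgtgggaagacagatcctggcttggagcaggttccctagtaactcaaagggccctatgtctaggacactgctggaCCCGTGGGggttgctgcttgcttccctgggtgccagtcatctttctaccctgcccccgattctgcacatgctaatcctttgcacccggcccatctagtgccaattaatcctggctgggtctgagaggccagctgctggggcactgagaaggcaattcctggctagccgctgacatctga
Cnga4: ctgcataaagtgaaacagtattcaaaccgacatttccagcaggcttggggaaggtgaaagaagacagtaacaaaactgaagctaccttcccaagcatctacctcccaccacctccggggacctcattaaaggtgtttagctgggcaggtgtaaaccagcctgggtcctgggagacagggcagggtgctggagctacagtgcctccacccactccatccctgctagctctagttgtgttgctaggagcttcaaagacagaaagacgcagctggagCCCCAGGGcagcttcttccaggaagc
Pde4a: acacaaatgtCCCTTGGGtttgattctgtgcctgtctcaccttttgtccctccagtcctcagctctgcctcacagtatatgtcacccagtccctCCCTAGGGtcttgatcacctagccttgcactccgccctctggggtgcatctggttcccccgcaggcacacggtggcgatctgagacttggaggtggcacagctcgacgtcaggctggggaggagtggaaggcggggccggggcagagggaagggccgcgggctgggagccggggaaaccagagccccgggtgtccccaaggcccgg
The Cngb1 window is chr8:95306536-95306835 (- strand), that of Cnga4 is chr7:105404318-105404617 (+ strand) and that of Pde4a is chr9:21183851-21184150 (+ strand). Promoters were found for 15 of the 20 markers, and 9 of the 15 (60%) held CCCNNGGG in at least 1 promoter, against 15.4% of all 27025 genes with a promoter. Over promoters, 9 of 24 (37.5%) held it, against 13.7% of all 32851. The printed promoters are ones that hold the letters, and a match is a description, not a site in use. For cartilage, 13 genes had 20 promoters, and ACAAAG or ACAATG, letters of SOX factor sites, stood in promoters of 2 of the genes (15.4%), against 31.7% of all genes. Over promoters it was 6 of 20 (30.0%), against 28.6% of all.

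Cngb1, the channel's modulatory subunit whose promoter is the first of these, had 78.9, 90.4 and 70.9 CPM in the P3 libraries, against 27.1, 28.1 and 31.5 CPM in the P1 libraries (log2 fold change 1.47, SE 0.22, adjusted p = 1.24e-06). Every P3 library was above the highest P1 library. Cnga4, another modulatory subunit of the channel, had 65.6, 94.6 and 63.6 CPM in the P3 libraries, against 33.7, 33.8 and 32.2 CPM in the P1 libraries (log2 fold change 1.17, SE 0.25, adjusted p = 0.000357). Pde4a, a phosphodiesterase that degrades cyclic AMP in the cell body of the neurons, had 57.9, 42.7 and 36.4 CPM in the P3 libraries, against 13.4, 14.7 and 16.2 CPM in the P1 libraries (log2 fold change 1.63, SE 0.26, adjusted p = 4.87e-06). None of these 3 overlapped. In ectopicFzd1 mice Cngb1 changed by 1.01 (adjusted p = 0.000621) and Cnga4 by 1.63 (adjusted p = 4.33e-06), but Pde4a by 0.00 (adjusted p = 1), and for Pde4a the difference between the lines was 1.63 (adjusted p = 0.00268). Adcy3, adenylyl cyclase of the cascade and, like Cnga2 and Gnal, named after its values were seen, had 171, 195 and 185 CPM in the P3 libraries, against 89.1, 94.8 and 83.4 CPM in the P1 libraries (log2 fold change 1.04, SE 0.26, adjusted p = 0.00213). Cnga2 and Gnal, also needed for the odour response, were above P1 in every P3 library but did not pass the test, at 0.49 (SE 0.24, adjusted p = 0.15) and 0.39 (SE 0.23, adjusted p = 0.25).

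Omp, which encodes olfactory marker protein and whose locus carries the tTA allele, was the 1 lower marker of the 20. It had 36.2, 30.2 and 23.8 CPM in the P3 libraries, against 228, 220.0 and 218 CPM in the P1 libraries (log2 fold change -2.89, SE 0.37, adjusted p = 3.33e-08). The 3 P1 libraries lay close together and far above all P3 libraries. On the TPM scale, which corrects for length, Omp averaged 10.03 ± 2.51 TPM at P3 and 72.1 ± 2.49 TPM at P1 (SD, n = 3 each). In ectopicFzd1 mice with DOX it averaged 28.1 ± 2.10 CPM at P3 and 25.0 ± 3.88 CPM at P1 (SD, n = 3 each), with a change of 0.18 (adjusted p = 0.789), so that the lines differed (-3.07, adjusted p = 0.000159). Control mice without DOX had 27.9 CPM at P3 (n = 2), against 226 ± 54.1 CPM at P0 (SD, n = 3), a change of -3.02 (adjusted p = 2.16e-06). At P7, P10 and P14 with DOX the control means were 546, 881 and 1296 CPM. The labels do not state how many copies of the Omp-IRES-tTA allele each animal carried.

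Part of the genes of immature neurons and their regulators were higher too. Of 16 markers of immature neurons, 7 were higher and 1 was lower at P3, and 4 were higher without P1 replicate 1. Elavl4, an RNA-binding protein of young neurons, had 101, 123 and 81.3 CPM in the P3 libraries, against 44.4, 41.7 and 38.4 CPM in the P1 libraries (log2 fold change 1.29, SE 0.17, adjusted p = 8.77e-08). Gnas, the G protein gene that immature neurons use before Gnal, was the 1 that was lower, at -0.74 (SE 0.17, adjusted p = 0.000688). Of 18 transcription factors of olfactory neurogenesis, 10 were higher and 1 was lower, with none lower without P3 replicate 1. Nhlh1, a helix-loop-helix factor of immature neurons, had 49.0, 46.5 and 48.1 CPM in the P3 libraries, against 21.5, 17.3 and 24.3 CPM in the P1 libraries (log2 fold change 1.19, SE 0.20, adjusted p = 1.16e-05). Both genes separated the ages. Ebf4, an early B-cell factor, changed by 1.09 (SE 0.20, adjusted p = 3.95e-05), and Rcor2, a corepressor of chromatin, by 0.93 (SE 0.17, adjusted p = 2.28e-05). Ezh2, which methylates histone H3, changed by 0.72 (SE 0.12, adjusted p = 1.56e-05). In ectopicFzd1 mice Nhlh1 changed by 0.17 (adjusted p = 0.581) and Ezh2 by -0.18 (adjusted p = 0.31), and both differed between the lines, by 1.02 (adjusted p = 0.0142) and 0.90 (adjusted p = 0.0006).

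Of 17 synapse and vesicle genes, 7 were higher and none was lower at P3. Syp, a protein of synaptic vesicles, had 93.9, 119 and 91.8 CPM in the P3 libraries, against 58.5, 51.3 and 58.2 CPM in the P1 libraries (log2 fold change 0.86, SE 0.23, adjusted p = 0.00386), without overlap. Of 23 axon guidance genes, 9 were higher and 3 were lower, and 1 was lower without P1 replicate 3 or without P3 replicate 1. Plxna3, a receptor for semaphorins, had 104, 123 and 113 CPM in the P3 libraries, against 43.1, 44.2 and 44.3 CPM in the P1 libraries (log2 fold change 1.37, SE 0.18, adjusted p = 5.27e-08). Both groups were tight and apart. Dscam, an adhesion molecule, changed by 0.94 (SE 0.17, adjusted p = 4.05e-05), and Slit1, a repellent for growing axons, by 0.87 (SE 0.18, adjusted p = 0.000182). Sema3f, a semaphorin, changed by 0.78 (SE 0.17, adjusted p = 0.000322) in control and by -0.40 (adjusted p = 0.0717) in ectopicFzd1, and the lines differed (1.18, adjusted p = 0.000646). Ptprn, a vesicle protein in the list of activity-dependent genes of these neurons, had 12.8, 16.7 and 14.7 CPM in the P3 libraries, against 2.08, 4.27 and 4.29 CPM in the P1 libraries (log2 fold change 2.08, SE 0.39, adjusted p = 5.23e-05), and that list held 1 higher and 1 lower gene of 13. No gene of the list was lower without P1 replicate 2, P1 replicate 3 or P3 replicate 1, and 3 were higher without P3 replicate 1. Genes of the olfactory bulb and brain, to which the axons run, had 3 of 13 members higher and none lower, at 687 to 769 CPM in the P3 libraries, against 423 to 449 CPM in the P1 libraries summed. Olig2, a factor of progenitors and glia, changed by 1.06 (SE 0.21, adjusted p = 0.000141) and Aqp4, a water channel, by 0.95 (SE 0.16, adjusted p = 1.04e-05).

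**Figure D4:**
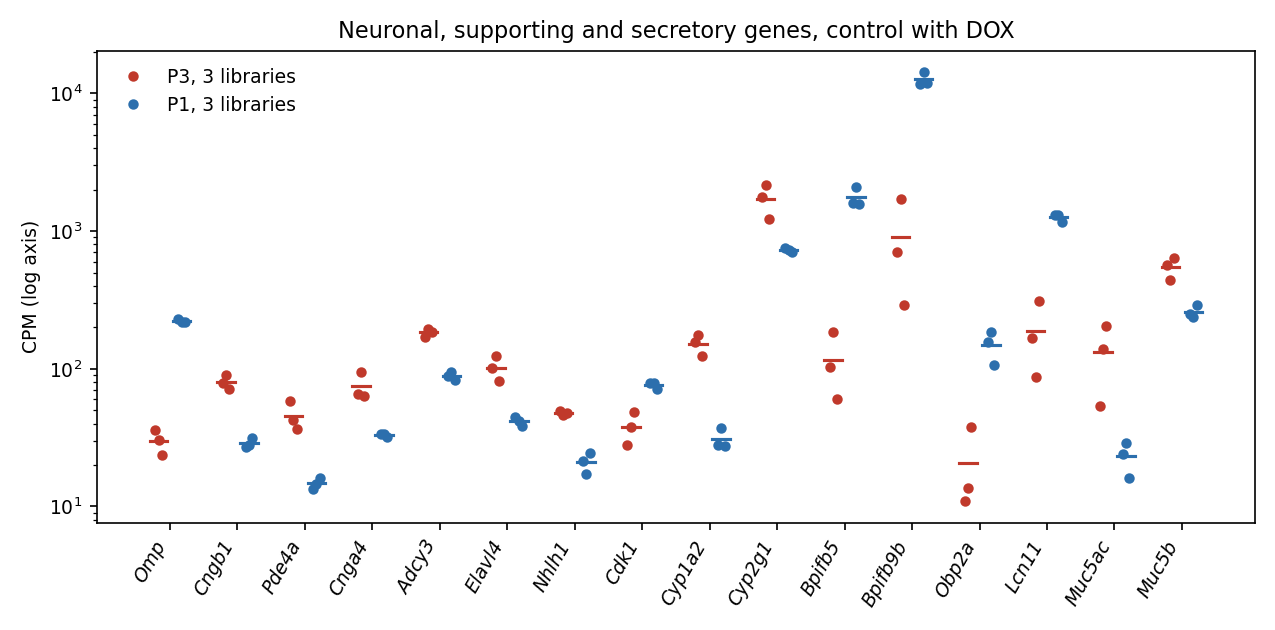
Level in CPM (log axis) of 16 neuronal, cell cycle, supporting cell and secretory genes in each of the 3 P3 and 3 P1 libraries of control mice with DOX; points are libraries and short lines are group means. Omp and the secretory genes Bpifb5, Bpifb9b, Obp2a and Lcn11 lie lower at P3, and the other neuronal genes and Cyp1a2 lie higher.

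Odorant receptors, each expressed in few neurons, took 0.278, 0.238 and 0.205% of gene counts in the P3 libraries and 0.208, 0.179 and 0.200% in the P1 libraries, and the groups overlapped. The 95% Wilson intervals, which cover counting error only, were 0.272 to 0.284%, 0.234 to 0.243% and 0.201 to 0.209% at P3, and 0.204 to 0.211%, 0.175 to 0.183% and 0.195 to 0.204% at P1. The means were 0.240 ± 0.0365% at P3 and 0.195 ± 0.0147% at P1 (SD, n = 3 each), a difference of 0.0450 percentage points with p = 0.2 in a 2-sided exact permutation test, in which 3 against 3 libraries allow no p below 0.1. The difference was 0.0262 without P3 replicate 1. Receptor genes with a count numbered 1037 to 1059 at P3 and 1015 to 1062 at P1. Of 922 odorant receptors tested, 15 were higher and 3 were lower at P3, against 8.93% higher and 13% lower among all genes. Only 5 were higher without P3 replicate 2 and 6 without P3 replicate 1 or P1 replicate 2, while 5 were lower without P3 replicate 1. Olfr24 had 13.1, 9.93 and 8.54 CPM in the P3 libraries, against 5.55, 3.87 and 3.34 CPM in the P1 libraries (log2 fold change 1.26, SE 0.24, adjusted p = 7.72e-05), with no overlap. Olfr920 went the other way, at -1.84 (SE 0.48, adjusted p = 0.00308), and at -2.82 (adjusted p = 0.000362) without P3 replicate 3. In ectopicFzd1 mice 255 of the 922 were higher at P3 and none was lower, against 6.22% higher and 11.3% lower among all genes there. Between the lines 56 of the 922 differed, all with the lower value in control. Among all genes 4.15% differed that way and 4.72% the other way, so the 56 are near the share of all genes. Trace amine-associated receptors, a smaller family of odour receptors, had none of 7 called. Reads can be shared among near-identical receptors, so single receptor values are uncertain.

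Vomeronasal receptors, which detect pheromones in the vomeronasal organ beside the nasal cavity, had 16 of 153 members higher and none lower at P3, against 8.93% higher and 13% lower among all genes. The count of 16 is near the share of all genes that were higher. Their median was 1.38, their summed level was 229.8 to 613 CPM in the P3 libraries, against 127 to 167 CPM in the P1 libraries, and P3 replicate 3 was the highest library. Without P3 replicate 3 only 1 was called, without P1 replicate 2 it was 3, without P1 replicate 3 it was 7 and without P1 replicate 1 it was 8. Vmn2r122 had 1.09, 0.422 and 12.3 CPM in the P3 libraries, against 0.347, 0.610 and 0.238 CPM in the P1 libraries, overlapping between ages, and its call was lost without P3 replicate 3 or P1 replicate 1. Vmn1r175 had 2.45, 0.422 and 1.79 CPM in the P3 libraries, against 0.174, 0 and 0 CPM in the P1 libraries, from 20 counts over the P3 libraries and 1 over the P1 libraries, a ratio of 22.1 (95% counting interval 3.54 to 917). Of genes of vomeronasal neurons, 3 of 9 were higher. Bcl11b, a transcription factor of vomeronasal and other neurons, changed by 1.09 (SE 0.19, adjusted p = 1.45e-05), while Calr4, an endoplasmic reticulum chaperone, was at 2.176, 4.86 and 23.1 CPM in the P3 libraries, against 2.26, 2.65 and 1.43 CPM in the P1 libraries and Gnao1, a G protein of vomeronasal neurons, at 105.01, 85.1 and 82.9 CPM in the P3 libraries, against 49.1, 61.7 and 78.4 CPM in the P1 libraries. Calr4 overlapped between ages and was at 0.76 (adjusted p = 0.549) without P3 replicate 3, and Gnao1 at 0.38 (adjusted p = 0.182) without P1 replicate 1, at 0.52 (adjusted p = 0.0628) without P1 replicate 2 and at 0.42 (adjusted p = 0.135) without P3 replicate 1. Trpc2, the defining channel of vomeronasal neurons, is listed at 0 in all 6 libraries. The part of vomeronasal tissue in these results was not tested, nor was that of the larger Gm10800-type share at P3 beyond the refits.

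Enzymes of supporting cells were higher in part. Of 32 enzymes of xenobiotic metabolism, 9 were higher and none was lower at P3, as were 3 of 15 sustentacular cell genes. Without P3 replicate 3, 1 gene of each of these lists was lower. Cyp1a2, a cytochrome P450 that oxidises foreign aromatic compounds, had 156, 176 and 125 CPM in the P3 libraries, against 28.1, 37.2 and 27.4 CPM in the P1 libraries (log2 fold change 2.30, SE 0.23, adjusted p = 4.8e-11). Cyp2g1, a cytochrome P450 known for its expression in olfactory mucosa, had 1768, 2144 and 1226 CPM in the P3 libraries, against 748, 731 and 700.3 CPM in the P1 libraries (log2 fold change 1.24, SE 0.26, adjusted p = 0.000275). Both separated the ages, and the spread at P3 was wider than at P1. The flavin monooxygenase genes Fmo6 and Fmo2 changed by 1.41 (SE 0.22, adjusted p = 1.84e-06) and 0.74 (SE 0.18, adjusted p = 0.0012). In ectopicFzd1 mice 13 of the 32 enzymes were higher and 3 were lower at P3. Cyp1a2 changed there by 0.79 (adjusted p = 0.00743), and its change differed between the lines (1.51, adjusted p = 0.00147). Of microvillar cell and ionocyte genes, 4 of 12 were higher, and 2 without P3 replicate 2, while 1 was lower without P1 replicate 1 or P3 replicate 3. Foxi1, a transcription factor of ionocytes, changed by 0.92 (SE 0.20, adjusted p = 0.00032), and Pou2f3, the factor that specifies tuft-like microvillar cells, by 1.11 (SE 0.28, adjusted p = 0.00205).

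Secreted proteins of the nasal glands split. Of 24 tested, 5 were higher and 5 were lower at P3, and their summed level was 6501 to 10854 CPM in the P3 libraries, against 20452 to 23832 CPM in the P1 libraries. Bpifb9b, named after its values were seen, a member of the family of bactericidal and lipid-binding BPI proteins, had 708, 1703 and 289 CPM in the P3 libraries, against 11655, 14246 and 11959 CPM in the P1 libraries (log2 fold change -3.81, SE 1.22, adjusted p = 0.0171). Bpifb5, of the same family but outside the list, had 103, 186 and 60.4 CPM in the P3 libraries, against 1609.9, 2098 and 1567 CPM in the P1 libraries (log2 fold change -3.91, SE 1.08, adjusted p = 0.0052). Obp2a, an odorant-binding protein, had 10.9, 13.5 and 38.0 CPM in the P3 libraries, against 156, 186 and 107 CPM in the P1 libraries (log2 fold change -2.82, SE 0.80, adjusted p = 0.00694). The ages did not overlap for these 3, though the P3 libraries differed several-fold among themselves. Lcn11, a lipocalin, had 166, 87.4 and 312 CPM in the P3 libraries, against 1312, 1302 and 1169.6 CPM in the P1 libraries (log2 fold change -2.74, SE 0.85, adjusted p = 0.0132), and -2.66 (adjusted p = 0.0585) without P3 replicate 1 and -2.40 (adjusted p = 0.0791) without P3 replicate 2. At P7 with DOX, Bpifb9b averaged 17396 ± 16009 CPM (SD, n = 3), so this gene also spread widely within an age. The mucins were higher, Muc5ac at 53.3, 139.8 and 205 CPM in the P3 libraries, against 24.0, 29.1 and 16.2 CPM in the P1 libraries (log2 fold change 2.52, SE 0.70, adjusted p = 0.00587) and Muc5b at 571, 442 and 634 CPM in the P3 libraries, against 250.3, 238 and 289 CPM in the P1 libraries (log2 fold change 1.08, SE 0.32, adjusted p = 0.00953). In ectopicFzd1 mice Muc5b changed by -1.26 (adjusted p = 0.00342), and the lines differed (2.35, adjusted p = 0.000629). The count of higher secretory genes was 2 without P1 replicate 2 and 3 without P1 replicate 3, P3 replicate 2 or P3 replicate 3. The count of lower ones was 1 without P3 replicate 1 and 3 without P3 replicate 3. Read sharing within the BPI, odorant-binding and lipocalin families makes single values uncertain.

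Genes of defence and inflammation were higher in part, and several of the counts fell when 1 library was left out. Of 18 innate defence genes, 5 were higher and none was lower, and the count was 1 without P3 replicate 2 and 2 without P1 replicate 1 or P1 replicate 2. Chil4 and Chil6, chitinase-like proteins, changed by 5.04 (SE 1.21, adjusted p = 0.00134) and 1.14 (SE 0.33, adjusted p = 0.00789), and without P3 replicate 2 by 2.35 (adjusted p = 0.265) and 0.62 (adjusted p = 0.221). Chil4 overlapped between ages. Outside the list, Il1rn, the antagonist of the interleukin 1 receptor, had 9.52, 11.4 and 7.75 CPM in the P3 libraries, against 1.56, 0.610 and 0 CPM in the P1 libraries (log2 fold change 3.56, SE 0.72, adjusted p = 0.000165). Gcnt7, a glycosyltransferase gene, had 29.7, 35.5 and 25.6 CPM in the P3 libraries, against 1.22, 3.87 and 4.05 CPM in the P1 libraries (log2 fold change 3.36, SE 0.40, adjusted p = 4.61e-09). In ectopicFzd1 mice these changed by 0.02 (adjusted p = 0.994) and 1.26 (adjusted p = 0.004), and both differed between the lines, by 3.55 (adjusted p = 0.0245) and 2.10 (adjusted p = 0.00824). Oasl2, induced by interferon, had 23.9, 23.0 and 26.2 CPM in the P3 libraries, against 8.16, 6.10 and 9.06 CPM in the P1 libraries (log2 fold change 1.65, SE 0.31, adjusted p = 6.1e-05), and was the 1 called of 16 interferon response genes, where 2 were called without P3 replicate 3. Of 12 neutrophil genes, 5 were higher and 1 was lower, with 2 higher without P1 replicate 2 or P3 replicate 2 and 3 without P1 replicate 1. S100a8, an abundant neutrophil protein, changed by 1.42 (SE 0.37, adjusted p = 0.003) and Cxcr2, a chemokine receptor of neutrophils, by 2.12 (SE 0.60, adjusted p = 0.00653). Mmp9, which osteoclasts make as well as neutrophils, was the lower 1, with 15.8, 25.8 and 20.3 CPM in the P3 libraries, against 91.3, 101 and 96.8 CPM in the P1 libraries (log2 fold change -2.21, SE 0.34, adjusted p = 1.55e-06). Mpo, a defining enzyme of neutrophil granules named after its values were seen, was at 3.26, 0.845 and 2.19 CPM in the P3 libraries, against 1.22, 1.83 and 0.953 CPM in the P1 libraries.

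Some genes of vessels and resident immune cells were lower at P3. Of 12 endothelial genes, 6 were lower and none was higher, at 140.0 to 217 CPM in the P3 libraries, against 237 to 326 CPM in the P1 libraries summed. Pecam1, an adhesion molecule of endothelium, had 23.1, 18.4 and 29.8 CPM in the P3 libraries, against 59.7, 47.0 and 42.0 CPM in the P1 libraries (log2 fold change -1.06, SE 0.22, adjusted p = 0.000178). Kdr, the receptor for vascular endothelial growth factor, changed by -0.93 (SE 0.24, adjusted p = 0.0026). Of 18 macrophage, complement and MHC class II genes, 6 were lower and none was higher, at 313 to 386 CPM in the P3 libraries, against 373 to 423 CPM in the P1 libraries. Mrc1, the mannose receptor of resident macrophages, changed by -1.12 (SE 0.26, adjusted p = 0.000939) and Csf1r, the receptor for colony-stimulating factor 1, by -0.86 (SE 0.22, adjusted p = 0.00232). In ectopicFzd1 mice 9 of the endothelial and 9 of the macrophage genes were lower, and none in either list was higher, against 11.3% lower and 6.22% higher among all genes there. Of 15 genes of olfactory ensheathing glia, which wrap the axons, 4 were lower. S100b, a calcium-binding protein of glia and of chondrocytes, had 9.79, 8.66 and 11.7 CPM in the P3 libraries, against 28.5, 27.1 and 30.3 CPM in the P1 libraries (log2 fold change -1.50, SE 0.25, adjusted p = 1.11e-05), and Scrg1, also made by chondrocytes, changed by -2.16 (SE 0.56, adjusted p = 0.00301). Of 10 erythroid genes, 1 was lower, Alas2, the enzyme that starts haem synthesis in red cells, at -1.55 (SE 0.35, adjusted p = 0.000647), and 4 were lower without P3 replicate 3. Of 10 lymphocyte genes, 1 was lower, Ighm, the heavy chain of immunoglobulin M, at -2.03 (SE 0.55, adjusted p = 0.00438), and the median of the list was 0.61. Among all genes 13% were lower, so the erythroid and lymphocyte counts of 1 in 10 are near that share. The summed cartilage and bone levels given above were also lower at P3, and their part in these results was not tested.

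Skeletal muscle genes had 3 of 16 members lower, at 44.6 to 83.8 CPM in the P3 libraries, against 62.7 to 194 CPM in the P1 libraries. Myh8, perinatal myosin, had 4.08, 1.06 and 1.39 CPM in the P3 libraries, against 5.03, 29.7 and 11.7 CPM in the P1 libraries, with P1 replicate 2 the highest. It was at -1.97 (adjusted p = 0.0827) without that library, where none of the 16 was called, while 5 were called without P1 replicate 1. Ciliated cells of the respiratory epithelium had 1 of 18 genes lower and none higher, and 0 were lower without P3 replicate 1 or P3 replicate 2 and 3 without P3 replicate 3. Genes of the nasal vestibule and keratinising epithelium had none of 17 called, with 1 higher without P1 replicate 1 or P3 replicate 2 and 1 lower without P3 replicate 3. Krt4, a keratin of stratified epithelium, was at 8.71, 9.08 and 29.4 CPM in the P3 libraries, against 19.6, 12.2 and 14.5 CPM in the P1 libraries (log2 fold change 0.05, SE 0.47, adjusted p = 0.962), and Dmkn, another gene of stratified epithelium, at 13.6, 23.2 and 33.6 CPM in the P3 libraries, against 40.8, 31.5 and 36.0 CPM in the P1 libraries (log2 fold change -0.60, SE 0.23, adjusted p = 0.0546). Dmkn passed the test without P3 replicate 3, at -0.95 (adjusted p = 0.00605). Of 10 horizontal basal cell genes, 2 were higher and 1 was lower, with none higher without P3 replicate 3 and 1 without P1 replicate 1. Krt14, a keratin of these reserve stem cells, had 30.7, 45.8 and 83.3 CPM in the P3 libraries, against 28.1, 29.5 and 21.2 CPM in the P1 libraries (log2 fold change 1.03, SE 0.24, adjusted p = 0.00128), with P3 replicate 3 the highest, and 0.55 (adjusted p = 0.125) without it. Egfr, the receptor for epidermal growth factor, changed by -0.74 (SE 0.15, adjusted p = 0.000242). Of 9 further progenitor markers, 1 was higher, Hes5, a Notch target, from low counts at 3.81, 2.11 and 1.79 CPM in the P3 libraries, against 0.521, 0.814 and 0.715 CPM in the P1 libraries. Without P3 replicate 1 it was 1.49 (adjusted p = 0.106), and without P1 replicate 1 it was 1.68 (adjusted p = 0.0732).

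Part of the genes of dividing cells were lower at P3 in control mice. Of 22 cell cycle genes, 13 were lower and none was higher (median -0.58), at 986 to 1267 CPM in the P3 libraries, against 1560.3 to 1853 CPM in the P1 libraries summed, and 8 were lower without P1 replicate 2 or without P3 replicate 1. Cdk1, the kinase that starts mitosis, had 27.7, 37.6 and 48.3 CPM in the P3 libraries, against 79.3, 79.2 and 71.7 CPM in the P1 libraries (log2 fold change -1.01, SE 0.16, adjusted p = 2.79e-06). The P3 libraries were all below P1, P3 replicate 1 the lowest. Ccnb2, a mitotic cyclin, changed by -0.84 (SE 0.17, adjusted p = 0.000195), Ccna2, a cyclin of DNA replication and mitosis, by -0.80 (SE 0.18, adjusted p = 0.000785), and Mcm6, a subunit of the replicative helicase, by -0.71 (SE 0.16, adjusted p = 0.000475). Of the 22, 13 differed between the lines, all with the lower value in control, against 4.15% of all genes. In ectopicFzd1 mice 4 of the 22 were higher at P3 and none was lower. Cdk1 changed there by 0.26 (adjusted p = 0.282) and Ccnb2 by 0.64 (adjusted p = 0.0071). Without DOX, P3 against P0 called 1 of the 22 higher and none lower. Dtl, a factor of replication licensing outside the list, changed by -1.09 (SE 0.15, adjusted p = 6.34e-08) in control and by 0.35 (adjusted p = 0.0822) in ectopicFzd1, with a difference of -1.45 (adjusted p = 1.19e-05).

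Part of the histone genes also differed between the lines. In control 2 of 26 were higher and 3 were lower at P3, near the shares of all genes. In ectopicFzd1 19 were higher and none was lower, and 16 differed, all with the lower value in control. Among all genes 4.15% differed that way. The make-up of ectopicFzd1 P1 replicate 1 was given above, and its part in these counts was not tested. Without P3 replicate 1 no histone gene was lower in control, without P1 replicate 2 it was 1, and without P3 replicate 2 it was 5. Hist1h1c, a linker histone, had 158, 336 and 279 CPM in the P3 libraries, against 449, 457 and 439 CPM in the P1 libraries (log2 fold change -0.80, SE 0.24, adjusted p = 0.0122), and -0.54 (adjusted p = 0.164) without P3 replicate 1, the lowest library. In ectopicFzd1 it changed by 1.22 (adjusted p = 0.000221), with a difference between the lines of -2.02 (adjusted p = 0.000173). Many histone genes are near-identical, so their counts are uncertain.

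Part of the clock genes, which cycle over the day, were lower at P3 in control. Of 17 tested, 11 were lower and none was higher (median -0.68), and the other 6 did not pass the test, with log2 fold changes of up to 0.32. Nr1d2, a repressor of the clock, had 37.3, 49.2 and 52.9 CPM in the P3 libraries, against 98.8, 109 and 92.2 CPM in the P1 libraries (log2 fold change -1.10, SE 0.18, adjusted p = 6.75e-06). Per1, a period gene, had 26.1, 29.6 and 38.4 CPM in the P3 libraries, against 66.3, 59.4 and 79.4 CPM in the P1 libraries (log2 fold change -1.11, SE 0.28, adjusted p = 0.00234). Clock, the activator that drives the cycle, had 70.2, 72.2 and 81.5 CPM in the P3 libraries, against 109.7, 119.9 and 123 CPM in the P1 libraries (log2 fold change -0.65, SE 0.13, adjusted p = 0.000209). None of the 3 overlapped. Between the lines 7 of the 17 differed towards the lower value in control, against 4.15% of all genes, and 1 the other way. In ectopicFzd1 mice 3 of the 17 were lower. Nr1d2 changed there by -0.08 (adjusted p = 0.823) and Nr1d1, a related repressor, by 0.55 (adjusted p = 0.23), against -1.35 (adjusted p = 0.0012) in control. The labels give no time of day, so age and time of collection cannot be told apart. Of 17 glucocorticoid response genes, 2 were higher and 6 were lower, and none was higher without P1 replicate 1, P1 replicate 2 or P3 replicate 2, and 1 without P1 replicate 3 or P3 replicate 3. Mt1 and Mt2, metallothioneins that bind zinc, changed by -1.09 (SE 0.23, adjusted p = 0.000277) and -1.11 (SE 0.25, adjusted p = 0.000592), against 0.26 (adjusted p = 0.453) and 0.54 (adjusted p = 0.115) in ectopicFzd1.

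Metabolic genes changed in smaller numbers. Of 13 protein genes of mitochondrial DNA, mt-Co2, mt-Co3, mt-Atp6, mt-Atp8 and mt-Nd4l had no count in any of the 6 libraries. Of the 7 that were tested, 4 were lower, and 2 were lower without P3 replicate 2, so the result covers only part of the set. Of these, mt-Nd5, a subunit of complex I, had 226, 134 and 207 CPM in the P3 libraries, against 323, 393 and 545 CPM in the P1 libraries (log2 fold change -1.15, SE 0.26, adjusted p = 0.000601). None of 22 nuclear genes of the respiratory chain was called. Of 21 genes of fatty acid oxidation, 6 were lower and 1 was higher, with none higher without P1 replicate 1. Acot1, an acyl-CoA thioesterase, changed by -1.25 (SE 0.26, adjusted p = 0.000206). Of 19 genes of the integrated stress response, 5 were higher and 3 were lower. Asns, which makes asparagine, changed by -1.23 (SE 0.28, adjusted p = 0.000882) and Phgdh, which starts serine synthesis, by -1.02 (SE 0.20, adjusted p = 0.000129), while Sesn2, a stress-induced regulator of growth signalling, changed by 0.97 (SE 0.20, adjusted p = 0.000177) and Ddit3, a transcription factor of stressed cells, by 0.96 (SE 0.22, adjusted p = 0.000939). Of 14 genes of the unfolded protein response, 1 was higher and 2 were lower, with none lower without P3 replicate 2 and none higher without P1 replicate 1, P1 replicate 3 or P3 replicate 3. Of 22 immediate early genes, 6 were higher and 1 was lower. Without P3 replicate 3 none was higher, and without any 1 of the P1 libraries it was 3. None was lower without P1 replicate 3, P3 replicate 1 or P3 replicate 2. Junb, a part of the AP-1 factor, had 16.6, 16.5 and 37.8 CPM in the P3 libraries, against 12.2, 12.01 and 11.4 CPM in the P1 libraries, and was at 0.48 (adjusted p = 0.278) without P3 replicate 3.

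Fzd1, a Wnt receptor gene, is the gene the study manipulates, and these control mice carry no Fzd1 transgene in the labels. It had 28.6, 21.5 and 33.6 CPM in the P3 libraries, against 54.3, 47.8 and 48.1 CPM in the P1 libraries (log2 fold change -0.84, SE 0.44, adjusted p = 0.172). All 3 P3 libraries were below all P1 libraries, but the gene did not pass the test, and in ectopicFzd1 with DOX the change was -0.70 (adjusted p = 0.272). There its means were 37.3 ± 1.56 CPM at P3 and 60.4 ± 5.12 CPM at P1 (SD, n = 3 each). In the fit of only the P3 and P1 groups of control the gene was called (-0.86, adjusted p = 0.000549). The main test takes its spread within groups over all 72 libraries, where Fzd1 ran from 3.45 to 2122 CPM. The gene varied widely within some other groups, at 977, 658 and 43.0 CPM in ectopicFzd1 without DOX at P3. Its main p-value is therefore not a measure of the spread among these 6 libraries alone. Of 23 Wnt pathway genes, 1 was higher and 7 were lower at P3. Among ligands, Wnt7b changed by 1.01 (SE 0.23, adjusted p = 0.000751). Among receptors, Fzd7 changed by -0.71 (SE 0.16, adjusted p = 0.000483). Sfrp1, a secreted inhibitor that binds Wnt proteins, had 104.7, 114 and 134 CPM in the P3 libraries, against 287, 256 and 221 CPM in the P1 libraries (log2 fold change -1.11, SE 0.17, adjusted p = 1.39e-06), without overlap, and Dkk3, a Dickkopf family member, changed by -0.83 (SE 0.20, adjusted p = 0.00134). Axin2, a common target of the pathway named after its values were seen, was at 34.3, 26.4 and 30.6 CPM in the P3 libraries, against 32.5, 35.2 and 31.5 CPM in the P1 libraries (log2 fold change -0.12, SE 0.16, adjusted p = 0.625). In ectopicFzd1 mice 7 of the 23 were lower and none was higher.

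The change between P1 and P3 differed between control and ectopicFzd1 for 1963 of 22144 genes (8.86%), 1045 (4.72%) with the higher value in control and 918 (4.15%) with the lower. The control libraries in this test are the same 6, so its results are not separate from those above. Among genes named by smallest p, Zmynd8, a chromatin reader, had 148, 125 and 115 CPM in the P3 libraries, against 44.6, 47.4 and 50.3 CPM in the P1 libraries (log2 fold change 1.45, SE 0.16, adjusted p = 3.14e-10). It changed by -0.34 (adjusted p = 0.112) in ectopicFzd1, a difference of 1.79 (SE 0.22, adjusted p = 4.57e-07). Nfya, a subunit of the CCAAT-binding factor, changed by 1.18 (SE 0.16, adjusted p = 6.95e-08) in control and -0.31 (adjusted p = 0.136) in ectopicFzd1, a difference of 1.49 (adjusted p = 1.28e-05). Atp6v0a4, a subunit of the proton pump, changed by 1.27 (SE 0.17, adjusted p = 1.01e-07) and -0.30 (adjusted p = 0.209), a difference of 1.57 (adjusted p = 2.81e-05). Ttll10, a tubulin ligase-like enzyme, changed by 1.11 (SE 0.17, adjusted p = 2.12e-06) and -0.66 (adjusted p = 0.00337), a difference of 1.77 (adjusted p = 5.28e-06). Gm29008, a predicted gene, completes the 6 smallest p, with a difference of 2.52 (adjusted p = 5.28e-06). The count of 1963 was 1010 without ectopicFzd1 P3 replicate 3, 1090 without control P1 replicate 1, 1108 without control P3 replicate 1, 1111 without ectopicFzd1 P1 replicate 1 and 1293 without control P1 replicate 2. Of 46 lists, cartilage, fetal growth and vomeronasal receptor genes were among those with no member that differed between the lines. The shared ID of the ectopicFzd1 libraries at P3 was given above, and its part in these tests was not tested.

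**Figure D5:**
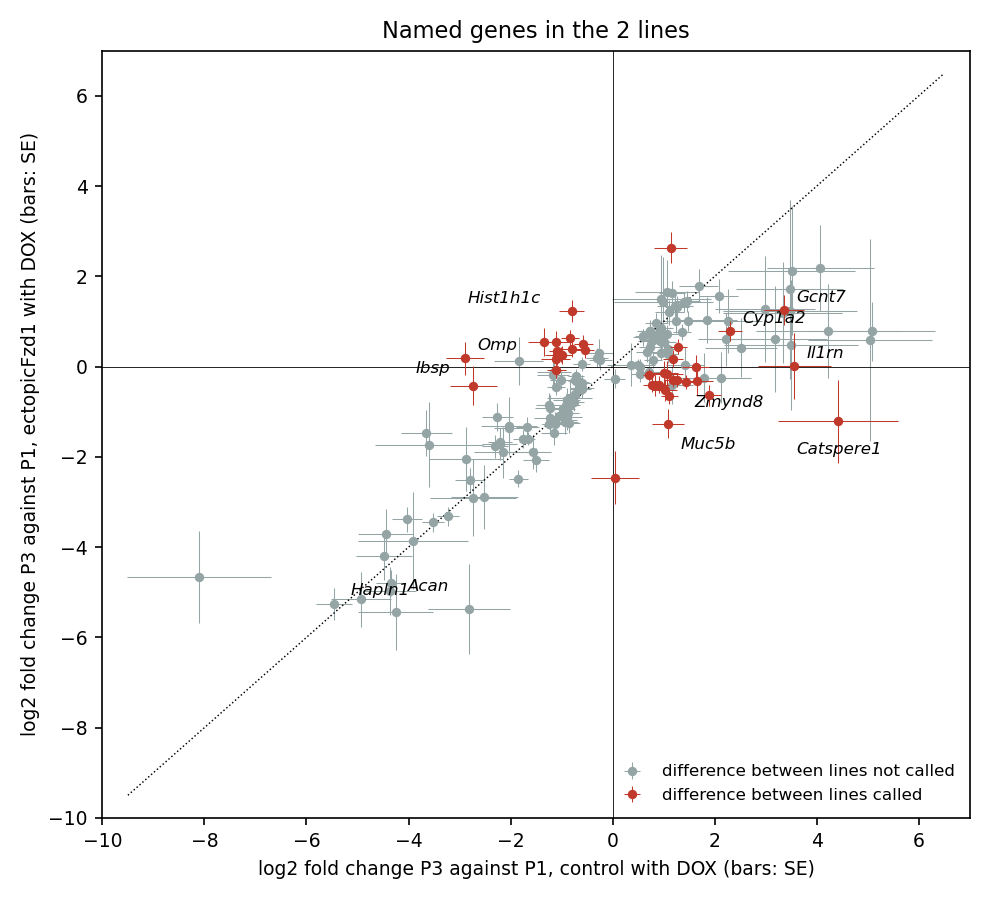
Log2 fold change between P3 and P1 of 166 named genes in control with DOX (horizontal axis) and ectopicFzd1 with DOX (vertical axis), with SE as bars and equality as a dotted line; red points are the 38 genes called for a difference between the lines. Cartilage genes such as Hapln1 and Acan lie near the line of equality at the lower left, and Omp, Muc5b and Hist1h1c lie off it.

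Few genes were close to silent at 1 age. At most 1 CPM in all libraries of an age and at least 5 CPM in all of the other was seen for 8 genes (0.0361%), named after their values were seen. Clec3a, Matn3, Upk3a, a uroplakin gene, and Mup4, a major urinary protein gene, were at the low level at P3. Rps13-ps1, Gm12892, Rpl15-ps2 and Gm44964, all processed pseudogenes whose reads may come from their parent genes, were at the low level at P1. In other groups the levels of these pseudogenes did not follow age. In ectopicFzd1 with DOX, Rps13-ps1 had 21.8, 35.1 and 39.2 CPM at P1, and Gm44964 had 86.8, 0 and 0.391 CPM at P3. Rpl15-ps2 had 0, 13.2 and 21.2 CPM in ectopicFzd1 with DOX at P1. In control at P3 without DOX, Rps13-ps1 had 0.466 and 0.358 CPM, Gm12892 0.310 and 6.80 CPM, and Mup4 0.466 and 20.6 CPM. Upk3a had 0.544, 0.422 and 0.795 CPM in the P3 libraries, against 6.25, 8.95 and 6.44 CPM in the P1 libraries (log2 fold change -3.54, SE 0.67, adjusted p = 5.87e-05). Mup4 had 0.544, 0.211 and 0.795 CPM in the P3 libraries, against 8.68, 11.4 and 5.48 CPM in the P1 libraries (log2 fold change -3.98, SE 2.80, adjusted p = 0.339), and its family shares reads. Among the largest rises of genes with low counts, Catspere1, a sperm channel subunit gene, had 2.176, 3.17 and 4.77 CPM in the P3 libraries, against 0.174, 0.203 and 0 CPM in the P1 libraries, a count ratio of 26.0 (95% counting interval 6.81 to 221). Its adjusted p was 0.00383. Otop1, a proton channel gene, had 0.544, 1.06 and 3.38 CPM in the P3 libraries, against 0.174, 0 and 0 CPM in the P1 libraries, a count ratio of 26.5 (95% counting interval 4.33 to 1092), and its call was lost without P3 replicate 3 (3.19, adjusted p = 0.183), P1 replicate 2 (3.79, adjusted p = 0.0932) or P1 replicate 3 (3.86, adjusted p = 0.075). The predicted gene BC051076, named after its values were seen and with no stated function, had 34.6, 14.4 and 85.6 CPM in the P3 libraries, against 3432, 3534 and 3085 CPM in the P1 libraries (log2 fold change -6.22, SE 1.39, adjusted p = 0.000612). Its level also spread widely within other groups, at 49.1, 4990.0 and 3663 CPM in control libraries at P7 with DOX and at 52.2 and 2308 CPM in those at P3 without DOX.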

How the data were processed

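RNA was measured in olfactory epithelium of 72 libraries, extracted with TRIzol and prepared with a stranded total RNA kit after ribosomal RNA removal, per the labels' protocols. The authors deposited whole-number read counts per gene and a table of TPM values. The submitters' processing notes name bcl2fastq 2.18, STAR 2.6.1c, RSEM and build mm10, with no role for each. The RSEM version, annotation release and use of strand in counting are not given in the sources used here, so antisense and overlapping genes are uncertain. Of 54532 gene IDs, 54495 (99.93%) matched GENCODE M21, 53921 with the same symbol.

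In R 4.3.3, edgeR 4.0.16 was used on the counts as deposited. Of the genes, 22144 passed filterByExpr over the 25 groups. After TMM scaling, all 72 libraries entered a single quasi-likelihood fit in which every group had its own mean. Calls have a Benjamini-Hochberg adjusted p below 0.05. Folds are P3 over P1, and differences between lines are control minus ectopicFzd1. The share of odorant receptors was compared by exact permutation. The members, gene lists, tests and naming rule were chosen with earlier results of these data known. Genes named are Fzd1, Omp, the 10 largest rises and falls among calls (no overlap between ages, no predicted name, average log2 CPM over 0), up to 4 called members of each list by smallest p, the 2 most abundant members of lists with none called, and the 6 smallest p of the difference between lines. Genes outside this rule were chosen after their values were seen. The 3 P3 and 3 P1 libraries of control with DOX differed within each age by 2.32 to 9.09 chi-square units per degree of freedom, so none of them was a duplicate, and other groups were not checked for it. Some results are not reported here.

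On counts simulated for this comparison with 200 changed genes among 22144 and a dispersion of 0.05, the share recovered by edgeR was 2.99% for log2 changes of 0.5, 40.3% for 1 and 95.5% for 2, and 6 unchanged genes were called. The changed genes were drawn from those with higher counts. With far fewer changed genes than the 4851 calls in the data, the adjusted p is stricter there, so these shares do not give the recovery in the data. Other settings tried were DESeq2 1.42.0 and its size factors, no filter, a filter at a mean CPM of 1, the compared groups fitted alone, limma 3.58.1 on log2(TPM + 1) and log2(TPM + 0.1), the counts without 13 genes of the Gm10800 type, covariates for their share and for the Y-linked level, and each library left out. Leaving out libraries of ectopicFzd1, all alternatives for P3 against P0, and the list counts without a library were chosen after seeing the data.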

Additional observations from a re-analysis of the deposited data

Results flagged for a closer look

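Of 168 named genes with a test, 38 differed between the lines in their change between P1 and P3 at an adjusted p below 0.05 in edgeR's interaction test (control minus ectopicFzd1, both with DOX), where 8.86% of all genes did, and 37 of them are given here. Many named genes were chosen by their calls in the same control libraries, and 6 by the smallest p of this test. That choice itself favours a higher share, so the 2 shares cannot be compared. The values are differences of log2 fold changes. Genes with the higher value in control were Zmynd8 1.79, Ttll10 1.77, Gm29008 2.52, Nfya 1.49, Atp6v0a4 1.57, Ezh2 0.90, Muc5b 2.35, Sema3f 1.18, Foxi1 1.32, Cyp1a2 1.51, Oasl2 1.98, Pde4a 1.63, Krt14 1.54, Gcnt7 2.10, Pclo 1.24, Catspere1 5.63, Nhlh1 1.02, Elavl4 0.85, Il1rn 3.55, Krt4 2.51, Arc 1.23 and Junb 1.15. Genes with the lower value in control were Dtl -1.45, Ccnb2 -1.47, Omp -3.07, Hist1h1c -2.02, Cdk1 -1.27, Mt2 -1.65, Ccna2 -1.20, Nr1d1 -1.90, Mt1 -1.36, H2afz -1.08, Nr1d2 -1.02, Ibsp -2.30, mt-Nd1 -0.92, Chil6 -1.50 and Per1 -1.27. Of those with a lower value, Omp was at -2.89 (SE 0.37, adjusted p = 3.33e-08) in control and at 0.18 (SE 0.37, adjusted p = 0.789) in ectopicFzd1. Krt4, Catspere1, Il1rn and other genes of low counts have wide errors, with an SE of the difference of 0.76 for Krt4, 1.51 for Catspere1 and 1.05 for Il1rn. No explanation was tested for these differences.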

How the results depend on the processing

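Labels give no replicate numbers, and replicates were numbered in accession order. No paired analysis was possible because the groups share no number from the labels. Of 155 named genes called, 51 were called in every setting that gave a value. DESeq2 lost none of the 148 with a value, its size factors in edgeR none, limma on log2(TPM + 1) lost 70 and on log2(TPM + 0.1) 100, no filter lost 9 and the fit on only the groups compared 1, and leaving out 1 library lost 12 to 19. Main counts were 4851 (control), 3875 (ectopicFzd1), 1963 (difference between lines) and 2800 (P3 against P0 without DOX). For control the count was 3050 with no filter, 1625 by limma on log2(TPM + 1) and 656 on log2(TPM + 0.1). For ectopicFzd1 it was 1731 in the fit on only the groups compared. For the difference between lines it was 841 with no filter, 809 in the fit on only the groups compared, 1031 and 94 by limma on log2(TPM + 1) and log2(TPM + 0.1), and 3070 with the share of the Gm10800 type as a covariate. The cause was not tested. Leaving out 1 library gave 3557 to 4326 calls for control, 2355 to 4193 for ectopicFzd1 (lowest without ectopicFzd1 P3 replicate 3), 1010 to 2765 for the difference between lines (lowest without ectopicFzd1 P3 replicate 3, highest without ectopicFzd1 P1 replicate 3) and 319 to 2795 for P3 against P0 (lowest without P3 replicate 1; 1612 and 1678 without P0 replicates 3 and 2), and a difference in odorant receptor share of 0.0262 to 0.0627 points. The share of control calls that were higher was 40.8% as reported, 51.4% without the Gm10800 type (median of all genes 0.15), 58.3% and 55.6% by limma, and the median of all genes was 0.13 by DESeq2. Of calls that differed between lines, 53.2% were higher as reported, 70.0% with no filter, 94.8% (median 0.21) and 92.6% (median 0.32) by limma. Fzd1 passed the test with no filter (-0.88, adjusted p = 0.00724) and in the fit on only the groups compared (-0.86, adjusted p = 0.000549). The direction turned for Hist2h3c2, a histone gene, at -0.87 and -0.89 by limma on log2(TPM + 1) and log2(TPM + 0.1), against 1.45. List medians turned for the unfolded protein response (0.00206 by limma on log2(TPM + 1)) and, with the share of the Gm10800 type as a covariate, for lymphocyte genes (-0.00872), the nasal vestibule (-0.124) and the Gm10800 type itself (-0.149). In simulated counts with 200 changed genes among 22144, most changes of 0.5 on the log2 scale were missed. The data held 4851 calls, so that simulation does not give the share missed in the data.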
